A study of Mus musculus with 16 samples.

Results

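The cholesterol module comprised 31 genes, taken from a list of names without a threshold on their values: 18 enzymes of sterol synthesis, 4 genes that control it, 5 genes of cholesterol transport, esterification and efflux, 2 liver X receptors and 2 enzymes that make oxysterols. All 31 were among the 32285 genes counted in single-nucleus RNA-seq of mouse hippocampus. The 16 libraries fell into 4 groups of 4 male mice each: C57BL/6 mice (WT) given vehicle, WT mice given DMXAA, Ifnar1-/- mice (KO) given vehicle and KO mice given DMXAA. DMXAA is an agonist of mouse STING, the sensor downstream of cGAS, and Ifnar1 encodes a chain of the type I interferon receptor, so the comparison asked which genes responded to STING activation and whether the response needed that receptor. WT mice were 2 months 23 days old and KO mice 3 months 3 days old. Genotype and age therefore cannot be told apart, nor can any batch that followed genotype. The knockout was present in all cells of the body from birth. Injections were repeated, and hippocampi were taken 1 day after the last. DMXAA was given in DMSO with PEG-400 and hydroxypropyl-β-cyclodextrin, a sugar ring known to bind cholesterol. The make-up of the vehicle is not given in the sources used here.

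Cells build cholesterol from acetyl-CoA through mevalonate and squalene. When membrane sterol is low, SCAP carries SREBP-2 (*Srebf2*) to the Golgi, and its released fragment switches on the synthesis genes, while INSIG1 holds SCAP back when sterol is high. Oxysterols activate the liver X receptors, which raise the efflux pumps ABCA1 and ABCG1. In the brain, astrocytes are known to make cholesterol for neurons, oligodendrocytes to make it for myelin, and neurons to turn it into 24-hydroxycholesterol through CYP46A1. *Ch25h*, which makes 25-hydroxycholesterol, is known as an interferon-induced gene of macrophages.

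The sequence before the start of 4 genes is shown because the results return to them. *Hmgcs1*, *Srebf2* and *Insig1* are genes under sterol control, and *Ebp* was the only member searched with a match to an interferon response core. RefSeq windows of 300 bases (250 before the start, 50 after) on GRCm38.p6 existed for 25 of the 31 members, 32 windows in all. *Sqle*, *Abcg1*, *Stard4*, *Fdps*, *Fdft1* and *Npc1* had no window and were not searched. Each stretch below is on the strand of its gene, 5′ to 3′, and ends before the first annotated exon. Capitals mark matches on either strand to the sterol regulatory element TCACNCCAC, to the NF-Y box CCAAT and to GAAANNGAA, the core of the interferon-stimulated response element. The stretches lie at chr13:119690101-119690350, chr15:82147019-82147180, chr5:28071162-28071362 and, on the minus strand, chrX:8193513-8193762.
Hmgcs1: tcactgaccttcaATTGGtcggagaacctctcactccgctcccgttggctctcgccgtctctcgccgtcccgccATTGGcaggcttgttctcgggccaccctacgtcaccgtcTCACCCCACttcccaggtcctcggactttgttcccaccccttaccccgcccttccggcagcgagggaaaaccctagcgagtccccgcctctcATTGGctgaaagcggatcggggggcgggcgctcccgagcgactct
Srebf2: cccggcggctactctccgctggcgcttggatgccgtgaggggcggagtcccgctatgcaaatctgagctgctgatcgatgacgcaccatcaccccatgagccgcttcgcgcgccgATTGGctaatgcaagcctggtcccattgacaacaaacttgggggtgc
Insig1: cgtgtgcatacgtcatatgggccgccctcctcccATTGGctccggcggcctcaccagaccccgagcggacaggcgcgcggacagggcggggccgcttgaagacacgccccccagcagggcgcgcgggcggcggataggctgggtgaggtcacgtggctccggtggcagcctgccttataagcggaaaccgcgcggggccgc
Ebp: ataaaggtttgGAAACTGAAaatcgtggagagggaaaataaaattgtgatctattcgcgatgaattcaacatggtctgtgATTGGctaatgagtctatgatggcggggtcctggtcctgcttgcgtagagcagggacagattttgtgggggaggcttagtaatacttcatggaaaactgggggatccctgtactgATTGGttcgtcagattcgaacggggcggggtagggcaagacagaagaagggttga

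The sterol regulatory element was found in 1 of the 32 member windows, that of *Hmgcs1*, where it ran from 137 to 129 bases before the start, and in 1.24% of all 32851 windows. The NF-Y box was in 20 of 32 member windows (62.5%), belonging to 19 genes, and in 37.4% of all windows. The interferon core was in the *Ebp* window alone among the member windows, from 239 to 231 bases before the start, and in 8.56% of all windows. A direct repeat of AGGTCA spaced by 4 bases (DR4), the classical liver X receptor element, was in 0 member windows and in 0.0152% of all windows. These are matches of letters in short windows, not measured binding.

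Libraries held 7869 to 12457 barcodes and 66059561 to 93228638 unique molecular identifiers (UMIs) each, and 12 to 41 barcodes were shared by any pair of libraries. After filtering, 111068 of 155084 barcodes were kept, 5267 to 9417 per library. Classes were rebuilt by clustering without the 31 members and named from markers, so each name below stands for a marker-defined, X-like class. Every library held nuclei of 6 classes in number: 5379 microglia, 14276 astrocytes, 18213 oligodendrocytes, 3447 oligodendrocyte precursors (OPCs), 46819 excitatory neurons (EN) and 5813 inhibitory neurons (IN). The knocked-out gene was still counted in KO nuclei, at 10.7 to 12.5 CPM (counts scaled to the library total) over all nuclei against 13.8 to 19.3 in WT, the lowest WT value being library WT DMXAA 3. That library stood apart in other ways too: 15.9% of its nuclei fell in unnamed clusters (5.96 to 14.1% elsewhere), and its scaling factor was 0.891 to 0.932 over the 6 classes against 0.982 to 1.21 in the other WT libraries and 0.796 to 1.01 in the KO libraries. In OPCs, EN and IN its factor lay inside the KO range, and in microglia, astrocytes and oligodendrocytes below it, at 0.916, 0.916 and 0.932 against KO minima of 0.918, 0.936 and 0.941. Members with an unadjusted *P* below 0.05 after DMXAA in WT are given with and without it where it was the extreme DMXAA library. The interferon response itself was plain in WT: in microglia a panel of interferon-induced genes summed to 389 to 605 normalized CPM after vehicle and to 1850 to 5408 after DMXAA, highest in WT DMXAA 1, and to 228 to 331 in all 8 KO libraries. All 11 panel genes tested in WT microglia rose, with a median log2 fold change of 3.28. Replicates were separate libraries, and *P* values measure the spread between them.

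Scaled to the UMIs of each class, sterol synthesis genes had their highest levels in astrocytes. Over the 6 classes, 17 of the 18 had their highest median CPM there (scaled to all UMIs of the class in a library, over all 16 libraries), as did *Insig1*, *Srebf1*, *Srebf2*, *Soat1*, *Stard4* and *Nr1h3*, giving 23 of 31 members. Oligodendrocytes were the next class for most of them, and microglia or EN the lowest for all synthesis genes but *Tm7sf2* and *Ebp*. These levels are a description without a test, because the classes were made from the same nuclei. They pool WT and KO libraries, which differed for some members, and *Fdps* would rank otherwise in WT alone. The ranking also rests on the scaling, as the median depth of a nucleus was 3136 UMIs in astrocytes and 7919 in IN. By share of nuclei with a UMI, IN were above astrocytes for *Cyp51* (22.3 against 20.2%) and *Sc5d* (13.1 against 10.2%), among others. Most synthesis genes stayed higher in astrocytes by this measure, such as *Msmo1* (36.3 against 11.6%).

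Among the mevalonate enzymes, *Hmgcs1*, HMG-CoA synthase, had a median of 75.6 CPM in astrocytes, 35.4 in oligodendrocytes and 13.8 in EN, and only the oligodendrocyte range reached the astrocyte range. *Idi1*, isopentenyl diphosphate isomerase, had 27.6 CPM in astrocytes and 1.64 in microglia, where its counts were sparse. *Fdps*, farnesyl diphosphate synthase, was less separated, at 22.3 CPM in astrocytes and 18.6 in oligodendrocytes over the libraries of both genotypes. In WT libraries alone its median was higher in oligodendrocytes than in astrocytes. The other 4 mevalonate genes had astrocyte medians of 15 to 18.2 CPM, and each of their ranges overlapped with at least 2 other classes.

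From squalene onward astrocytes had the highest median for 10 of 11 genes. Oligodendrocytes were next for these except *Hsd17b7*, where OPCs were next at a median of 5.38 CPM against 17.5 in astrocytes. *Msmo1*, the C4 demethylating oxidase, spanned 108 to 310 CPM in astrocytes against 28.9 to 72.6 in oligodendrocytes, with no overlap between astrocytes and any other fitted class. The same was true of *Nsdhl*, its partner dehydrogenase, at 32.5 to 90.3 against 13 to 25.9. *Fdft1*, squalene synthase, had medians of 124 and 58.0 in these classes, and *Sqle*, squalene epoxidase, 47.1 and 18.9. For both, only the oligodendrocyte range overlapped that of astrocytes. *Cyp51*, lanosterol 14α-demethylase, had medians of 74.2 in astrocytes, 45.8 in oligodendrocytes and 11.0 in microglia. The exception was *Ebp*, the sterol isomerase, with a median of 12.4 in microglia and 11.2 in oligodendrocytes, its range in microglia overlapping with all others.

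Of the 4 control genes, 3 also had their highest median in astrocytes. *Srebf2* had medians of 174 CPM in astrocytes, 156 in oligodendrocytes and 37.9 in microglia. *Srebf1*, which drives mainly fatty acid synthesis, had 48.0 in astrocytes and 3.47 in EN. *Insig1* had 42.0 in astrocytes, 31.9 in oligodendrocytes and 4.15 in EN, and the astrocyte and oligodendrocyte ranges overlapped. *Scap* had its highest median in oligodendrocytes, at 63.0, against 48.0 in astrocytes, with overlap, and its lowest in IN, at 38.5, whose range lay below that of oligodendrocytes.

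Transport and efflux genes divided among the glia instead. *Abca1* (chr4:53030787-53159895), the pump that loads cholesterol onto lipid-poor apolipoproteins, spanned 368 to 595 CPM in microglia, 153 to 248 in astrocytes and 6.99 to 13.7 in EN, and no fitted class overlapped with microglia. *Abcg1* (chr17:31057675-31117988), which passes cholesterol to mature particles, had its highest median in oligodendrocytes, at 144, then 91.2 in microglia, and its lowest in astrocytes, at 2.85. Of the 6 fitted classes, astrocytes thus held the second highest *Abca1* and the lowest *Abcg1*. *Soat1*, which esterifies cholesterol for storage, had a median of 175 in astrocytes and 82.6 in microglia, without overlap, and 12.4 in oligodendrocytes. *Npc1*, the lysosomal exporter, had 140 in oligodendrocytes, 110 in OPCs and 29.7 in EN. Of the liver X receptors, *Nr1h2* (LXRβ) was counted in all classes, with 20.6 in microglia and 4.06 in EN. *Nr1h3* (LXRα) had medians of 0.655 to 5.55 CPM, and its reads may be shared with an overlapping gene on the same strand.

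**Figure D1:**
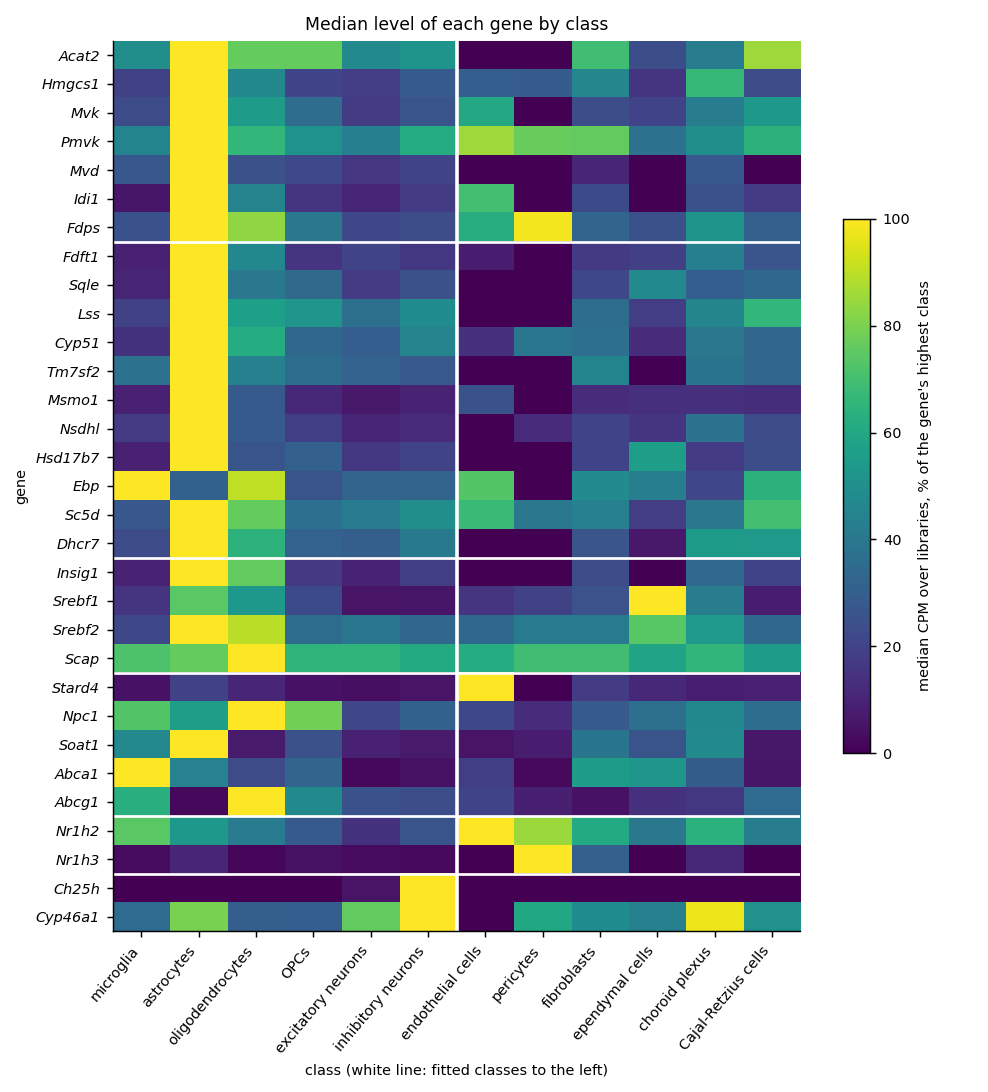
Median CPM over libraries of the 31 genes (rows, by role) in 12 classes (columns), each gene as a percentage of its own highest class on a linear colour scale, so rows cannot be compared for level. Astrocytes are brightest for 17 of the 18 synthesis genes, microglia for *Abca1* and oligodendrocytes for *Abcg1*. Classes to the right of the white line were not fitted and held 361 to 2874 nuclei.

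*Cyp46a1* was not confined to neurons in these nuclei. Its median was 29.1 CPM in IN and 23.2 in astrocytes, and the range in IN, 16.7 to 53.7, overlapped with every other fitted class. EN came next after astrocytes over all libraries, but in WT vehicle libraries alone the EN median was above that of astrocytes. Free RNA from neurons can reach glial nuclei in droplets, and its part in these levels was not tested. Within EN, regions named from markers differed for several members. *Hmgcs1* spanned 10.8 to 47.6 CPM in CA3, 8.31 to 19.2 in CA1 and 3.35 to 7.40 in dentate granule nuclei. The dentate range lay below those of CA1 and CA3. *Abca1* spanned 14.1 to 31.7 in CA1 and 5.48 to 11.4 in dentate nuclei, again without overlap, whereas *Cyp46a1* had medians of 24.3 in dentate and 13 in CA3 nuclei with overlapping ranges.

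*Ch25h* was counted in few nuclei. Its 37 UMIs in IN came from 35 of 5813 nuclei, 0.602% (exact 95% binomial interval 0.420 to 0.836%, counting error only). EN, with a similar median depth (8546 UMIs against 7919), had it in 17 of 46819 nuclei, 0.0363% (0.0212 to 0.0581%). Oligodendrocytes, a class not known for the gene, had it in 3 of 18213 nuclei, 0.0165% (0.00340 to 0.0481%), at a median depth of 2262. The interval of IN, over nuclei pooled from all 16 libraries, overlapped with neither. By library the level spanned 0 to 1.80 CPM in IN and 0 to 0.106 in EN, and the IN range overlapped with all 5 other classes. Microglia had 4 UMIs in 5379 nuclei (median depth 1859 UMIs), 2 in library WT vehicle 2 and 1 each in WT DMXAA 1 and 2, and OPCs had 0 in 3447 nuclei, which allows a share of nuclei with a UMI, not of nuclei expressing the gene, of up to 0.0870% when 3 counts are taken as the limit of a count of 0, and of up to 0.107% by the exact binomial interval. *Ch25h* passed the filter on low counts in no class and was not tested. In WT microglia it had 2 UMIs after vehicle and 2 after DMXAA over 4 libraries each.

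In WT, DMXAA changed no member in any of the 6 classes at the threshold used. A gene passed the test where edgeR's quasi-likelihood adjusted *P* was below 0.05 and the absolute log2 fold change above 0.1. After the filter, 14 members were tested in microglia, 30 in astrocytes, 29 in oligodendrocytes, 21 in OPCs, 30 in EN and 28 in IN. Of all genes tested, 2.04% passed in microglia, 0.255% in astrocytes, 0.0415% in oligodendrocytes, 0.174% in OPCs, 0.124% in EN and 0% in IN. At these rates fewer than 1 member per class would have passed. DESeq2 and limma-trend likewise passed 0 members. At unadjusted *P* below 0.05 there were 0 members in microglia (10.5% of all genes), 3 in astrocytes (6.21%), 3 in oligodendrocytes (5.66%), 4 in OPCs (5.60%), 5 in EN (4.38%) and 2 in IN (2.82%). Of the 42 other genes of sterol and lipid handling, 31 to 41 were tested per class and 0 passed.

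The median log2 fold change of the tested synthesis genes was 0.00 in microglia (6 genes), −0.19 in astrocytes, −0.13 in oligodendrocytes, −0.27 in OPCs (12 genes), −0.20 in EN and 0.01 in IN (18 genes where no number is given). Medians over all genes were 0.01 to 0.04. With an offset for gene length, chosen after seeing the data, the synthesis medians were −0.00, −0.14, −0.11, −0.23, −0.17 and 0.04. Below 0 lay 14 of 18 synthesis genes in astrocytes, 14 of 18 in oligodendrocytes, 8 of 12 in OPCs and 15 of 18 in EN, against 3 of 6 in microglia and 8 of 18 in IN. The summed level by library shows the spread behind these medians. In EN the sum was 173, 171, 196 and 219 normalized CPM (CPM divided by the scaling factor of the fit) after vehicle and 158, 157, 152 and 183 after DMXAA, so that only WT DMXAA 4 overlapped with vehicle. In astrocytes it was 659, 618, 680 and 1112 after vehicle and 938, 448, 613 and 775 after DMXAA. A single vehicle library, WT vehicle 4, was far above the others. WT DMXAA 2 and 3 lay below every vehicle library, and WT DMXAA 1 and 4 within the vehicle range. Without it the astrocyte median was 0.12, and the sign turned.

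**Figure D2:**
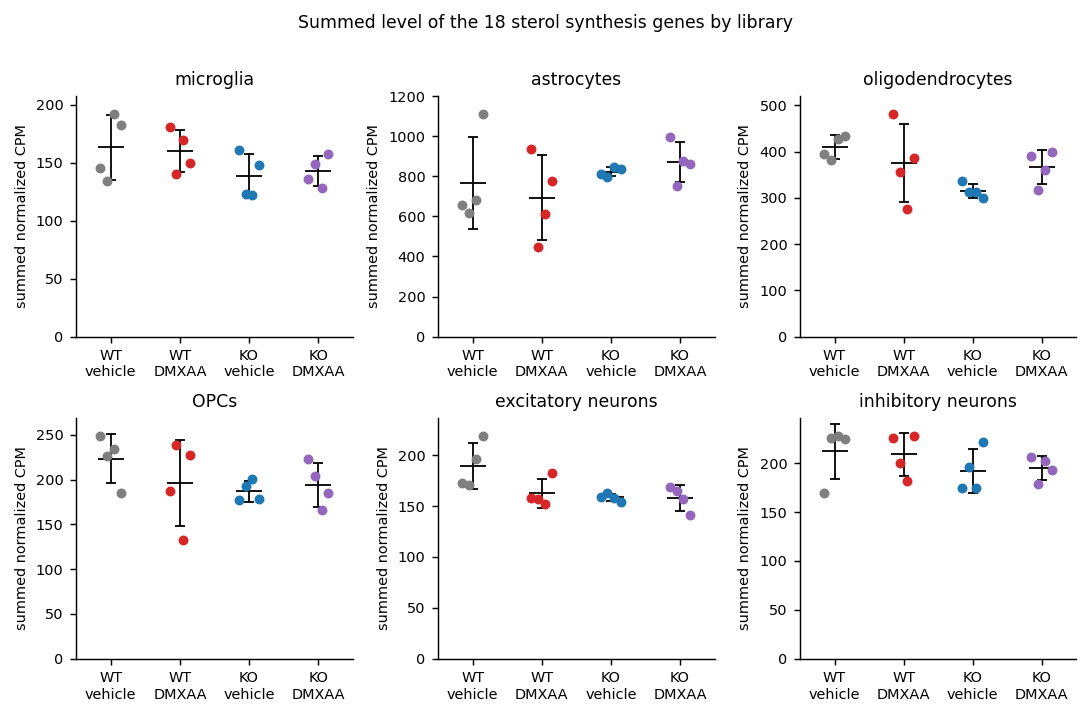
Summed normalized CPM of the 18 sterol synthesis genes (y axis) in each library (points) by group (x axis) for the 6 fitted classes, with bars at the mean ± SD of 4 libraries. In EN 3 of 4 WT DMXAA libraries lie below all WT vehicle libraries, while in astrocytes WT vehicle 4 stands at 1112 and the groups overlap.

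In EN, 5 members had an unadjusted *P* below 0.05, all lower after DMXAA: *Hmgcs1*, *Cyp51*, *Sqle*, *Insig1* and *Msmo1*, with log2 fold changes of −0.53 ± 0.20, −0.40 ± 0.16, −0.37 ± 0.14, −0.49 ± 0.19 and −0.35 ± 0.15 (± SE). All adjusted *P* values were 1.0. *Hmgcs1* had 16.5, 12.9, 20.2 and 22.2 normalized CPM after vehicle and 11.8, 9.40, 14.7 and 13.7 after DMXAA. *Cyp51* had 22.7, 26.5, 28.2 and 31.9 after vehicle and 20.7, 23.3, 14.4 and 24.3 after DMXAA. Both pairs of groups overlapped. *Sqle* had 10.2, 10.8, 11.6 and 13.1 after vehicle and 9.38, 8.29, 6.66 and 11.0 after DMXAA. *Insig1* had 5.42, 6.29, 6.67 and 6.72 after vehicle and 4.79, 3.86, 2.91 and 6.38 after DMXAA, and for both genes WT DMXAA 4 alone lay inside the vehicle range. Library WT DMXAA 3 gave the lowest DMXAA value of *Cyp51*, *Sqle* and *Insig1* but not of *Hmgcs1*. Without it the 5 log2 fold changes were −0.63, −0.26, −0.26, −0.33 and −0.33, and none passed. EN pool several regions, whose mix differed by library. WT DMXAA 3 held 16.8% of CA3 nuclei and at most 9.02% of dentate nuclei. The part of this mix in the EN values was not tested.

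In astrocytes, 2 synthesis genes and 1 efflux gene had an unadjusted *P* below 0.05. *Tm7sf2*, a sterol reductase, had a log2 fold change of −0.53 ± 0.19 (adjusted *P* = 0.601), with 13.7, 13.2, 17.5 and 17.7 normalized CPM after vehicle and 12.5, 7.82, 8.93 and 13.7 after DMXAA. Its annotated span overlaps with *Vps51* on the same strand, so its count is uncertain. *Nsdhl* had −0.47 ± 0.19 (adjusted *P* = 0.673), from 85.0, 54.9, 72.4 and 80.2 to 56.4, 32.2, 48.5 and 72.4, with overlap. *Abca1* had 0.28 ± 0.12 (adjusted *P* = 0.713), from 159, 174, 173 and 145 to 151, 236, 212 and 188, with WT DMXAA 1 inside the vehicle range.

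In oligodendrocytes both efflux pumps read higher after DMXAA. *Abcg1* had a log2 fold change of 0.47 ± 0.14 (adjusted *P* = 0.503) and *Abca1* of 0.59 ± 0.22 (adjusted *P* = 0.735), and with the length offset they were 0.47 (adjusted *P* = 0.550) and 0.59 (adjusted *P* = 0.757). *Abcg1* read 95.9, 92.5, 107 and 127 normalized CPM after vehicle and 196, 146, 116 and 125 after DMXAA. *Abca1* read 81.7, 71.5, 82.9 and 86.8 after vehicle and 195, 137, 82.6 and 72.7 after DMXAA. For *Abca1*, WT DMXAA 1 and 2 thus lay above every vehicle library and WT DMXAA 3 and 4 did not. The interferon panel sums of WT DMXAA 1 to 4 in oligodendrocytes were 430, 142, 123 and 148 normalized CPM, in that order. A link between panel sum and efflux pumps was not tested. Without WT DMXAA 1 the log2 fold changes were 0.29 for *Abcg1* (adjusted *P* = 0.586) and 0.27 for *Abca1* (adjusted *P* = 0.682). Without WT DMXAA 3 they were 0.56 (adjusted *P* = 0.0240) and 0.73 (adjusted *P* = 0.0444), and both passed. The share of all genes that passed in that fit is not given here, so these calls are no result about the pumps. *Cyp51* was at −0.33 ± 0.15 (adjusted *P* = 0.868), from 54.0, 45.6, 56.6 and 56.0 to 48.7, 41.7, 30 and 48.1, and at −0.20 without WT DMXAA 3 (adjusted *P* = 0.441). Of 14 marker lists summed in oligodendrocytes, that of fibroblasts did not overlap between the groups, at 6.25 to 9.43 CPM after vehicle and 11.6 to 15.8 after DMXAA, with 8 of 8 markers detected. The oligodendrocytes' own markers spanned 15046 to 16386 and 8979 to 17652. Microglial markers spanned 67.2 to 83.0 and 67.4 to 81.2, endothelial 3.13 to 5.99 and 2.77 to 11.6, excitatory neuron 460 to 552 and 418 to 744, and Cajal-Retzius markers 13.2 to 17.4 and 9.35 to 42.9. Their part in these differences was not tested.

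In OPCs *Srebf2* (chr15:82147181-82205379) had the lowest *P* among members, with a log2 fold change of −0.38 ± 0.14 (adjusted *P* = 0.688). Its values were 61.2, 59.8, 54.2 and 54.0 normalized CPM after vehicle and 38.2, 42.8, 51.7 and 42.8 after DMXAA, without overlap. In KO OPCs *Srebf2* was likewise lower after DMXAA, at −0.30 ± 0.13 (adjusted *P* = 0.885), from 75.0, 81.0, 71.8 and 80.8 to 62.8, 56.4, 67.4 and 62.9, also without overlap, and the interaction was −0.09 ± 0.19 (adjusted *P* = 0.951). Without WT DMXAA 3, the highest WT DMXAA library, the WT value of *Srebf2* was −0.47 (adjusted *P* = 0.196). *Scap* was at −0.49 ± 0.22 (adjusted *P* = 0.866), or −0.42 without the same library (adjusted *P* = 0.508), and *Nsdhl* at −0.90 ± 0.35 (adjusted *P* = 0.718) with 19.0, 16.5, 17.4 and 12.5 against 4.37, 8.79, 7.87 and 13.6. The 4 control genes summed to 112 to 117 after vehicle and 87.4 to 94.5 after DMXAA in WT, and to 139 to 176 and 125 to 135 in KO, without overlap in either genotype. Most of this sum is *Srebf2* and *Scap*, already given above for their *P* in the same libraries, so it is no separate result. It was picked from the sums of every role in all 6 classes. In WT the only other sum without overlap was that of the liver X receptors in IN, at 10.9 to 14.7 after vehicle and 6.34 to 10.2 after DMXAA. In WT the group means of *Srebf1* were 13.1 and 13.1, and those of *Insig1* 5.52 and 6.50. *Abcg1* was at 0.39 ± 0.18 (adjusted *P* = 0.875), from 50.6, 60.8, 60.6 and 61.8 to 110, 65.9, 69.7 and 61.6, with overlap.

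In IN and microglia few members stood out. In IN, *Nr1h2* had a log2 fold change of −0.60 ± 0.20 (adjusted *P* = 0.999), from 12.8, 10.4, 12.3 and 9.79 normalized CPM to 7.83, 8.79, 5.24 and 8.06, without overlap. Without WT DMXAA 3, the lowest library, it was −0.46 (adjusted *P* = 0.404). *Abca1* had 0.35 ± 0.16 (adjusted *P* = 0.999), from 19.5, 13.2, 16.7 and 18 to 24.9, 18.9, 21.2 and 21.4, with overlap. In microglia, the class with the strongest interferon response, *Abca1* read 396, 370, 429 and 440 after vehicle and 539, 454, 402 and 404 after DMXAA (log2 fold change 0.14 ± 0.11, adjusted *P* = 0.738), with overlap. *Npc1*, the member with the lowest *P* there, had a log2 fold change of −0.33 ± 0.17 (adjusted *P* = 0.526), from 109, 90.8, 98.1 and 105 to 76.5, 95.3, 56.0 and 92.1, the lowest being WT DMXAA 3, without which it was −0.20 (adjusted *P* = 0.546). *Soat1* followed, with 0.25 ± 0.17 (adjusted *P* = 0.712). Its highest vehicle value, 102, lay inside the DMXAA range of 86.0 to 106. Log2 fold changes of the 14 members tested in microglia ran from −0.33 to 0.25.

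**Figure D3:**
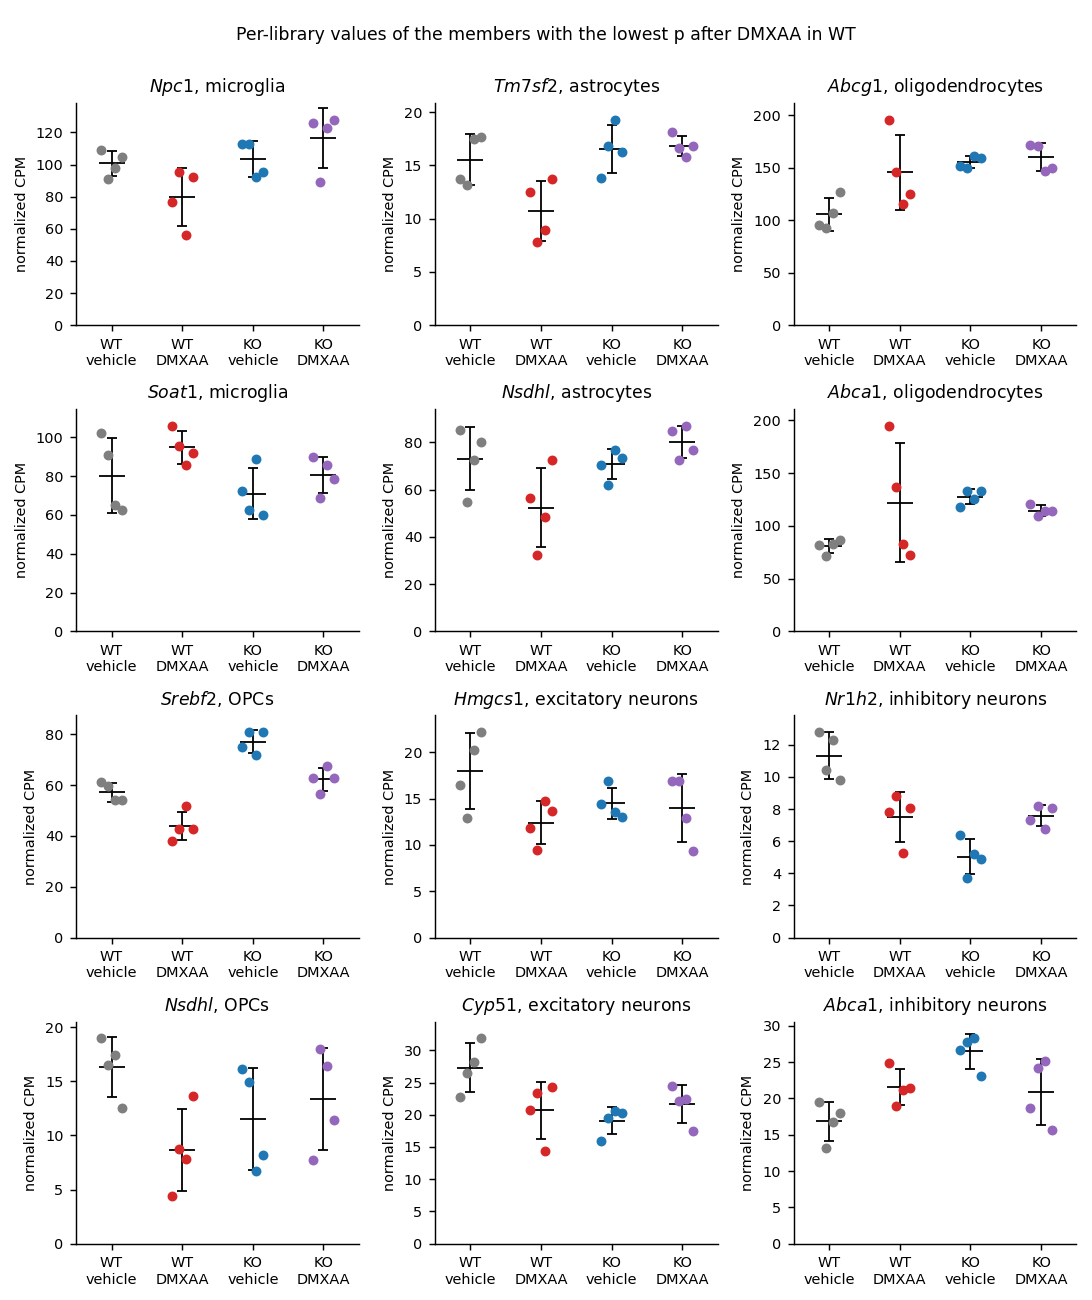
Normalized CPM (y axis, from 0) of the 2 members with the lowest *P* after DMXAA in WT in each class, by library (points) and group (x axis), with bars at the mean ± SD of 4 libraries. *Srebf2* in OPCs and *Nr1h2* in IN do not overlap between WT vehicle and WT DMXAA, while *Abca1* in oligodendrocytes ranges from 72.7 to 195 within WT DMXAA.

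In KO mice, again no member passed the test after DMXAA. The share of all genes that passed was 0% in microglia, 0% in astrocytes, 0% in oligodendrocytes, 0% in OPCs, 0% in EN and 0% in IN by edgeR. DESeq2 and limma-trend passed 0 members too. At unadjusted *P* below 0.05 there were 0 members in microglia (4.91% of all genes), 2 in astrocytes (5.43%), 4 in oligodendrocytes (3.75%), 2 in OPCs (5.35%), 0 in EN (5.65%) and 2 in IN (6.44%). Synthesis medians were 0.14, 0.07, 0.28, 0.04, −0.00 and 0.07 in that order of classes. This contrast followed gene length too, with medians of 0.20 over the shortest 20% of genes and −0.12 over the longest in oligodendrocytes, and with the offset for gene length the synthesis medians were 0.12, 0.00, 0.19, −0.02, −0.07 and −0.01. In oligodendrocytes *Cyp51* was at 0.50 ± 0.16 (adjusted *P* = 0.963), from 35.5, 31.3, 36.9 and 25.3 normalized CPM to 46.4, 41.0, 48.4 and 47.1, without overlap. The oligodendrocyte markers there summed to 12574 to 12814 CPM after vehicle and 13511 to 14207 after DMXAA, also without overlap, and their part was not tested. *Fdps* was at 0.73 ± 0.25 (adjusted *P* = 0.963), from 8.97, 10.7, 8.84 and 8.84 to 16.8, 9.83, 20.3 and 15, with 1 library overlapping. *Srebf1* in astrocytes was at 0.37 ± 0.14 (adjusted *P* = 0.879), from 50.4, 54.0, 45.7 and 38.7 to 67.7, 59.8, 56.8 and 60.1, without overlap. The OPC markers in KO astrocytes summed to 3038 to 3257 CPM after vehicle and 3328 to 3718 after DMXAA. These did not overlap either, and their part was not tested.

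The difference between the WT and the KO response was tested as an interaction, and 0 members passed in any class by edgeR. DESeq2 and limma-trend passed 0 as well. Of all genes, 0.106% passed in microglia, 0% in astrocytes, 0% in oligodendrocytes, 0.0513% in OPCs, 0.0282% in EN and 0% in IN. At unadjusted *P* below 0.05 there were 0 members in microglia (9.89% of all genes), 4 in astrocytes (6.95%), 4 in oligodendrocytes (5.42%), 3 in OPCs (6.58%), 3 in EN (6.54%) and 3 in IN (6.39%). The lowest *P* belonged to *Nr1h2* in IN, −1.18 ± 0.31 (adjusted *P* = 0.765), and to *Cyp51* in oligodendrocytes, −0.84 ± 0.22 (adjusted *P* = 0.702). The *Nr1h2* value combines a fall in WT with a rise in KO. Its UMIs in KO IN were 12, 8, 15 and 11 after vehicle and 16, 23, 22 and 14 after DMXAA. The shortest 20% of genes, which include *Nr1h2*, had a median of 0.18 after DMXAA in KO IN. For *Cyp51* the WT and KO fold changes were −0.33 and 0.50 in oligodendrocytes, −0.16 and 0.71 in OPCs and −0.40 and 0.18 in EN. *Abca1* had interaction values of 0.75 ± 0.31 in oligodendrocytes (adjusted *P* = 0.804), 0.68 ± 0.27 in EN (adjusted *P* = 0.730) and 0.66 ± 0.23 in IN (adjusted *P* = 0.765), none of which passed. The interaction also followed gene length, with medians of −0.21 over the shortest 20% of genes and 0.20 over the longest in EN, and −0.24 and 0.27 in oligodendrocytes.

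**Figure D4:**
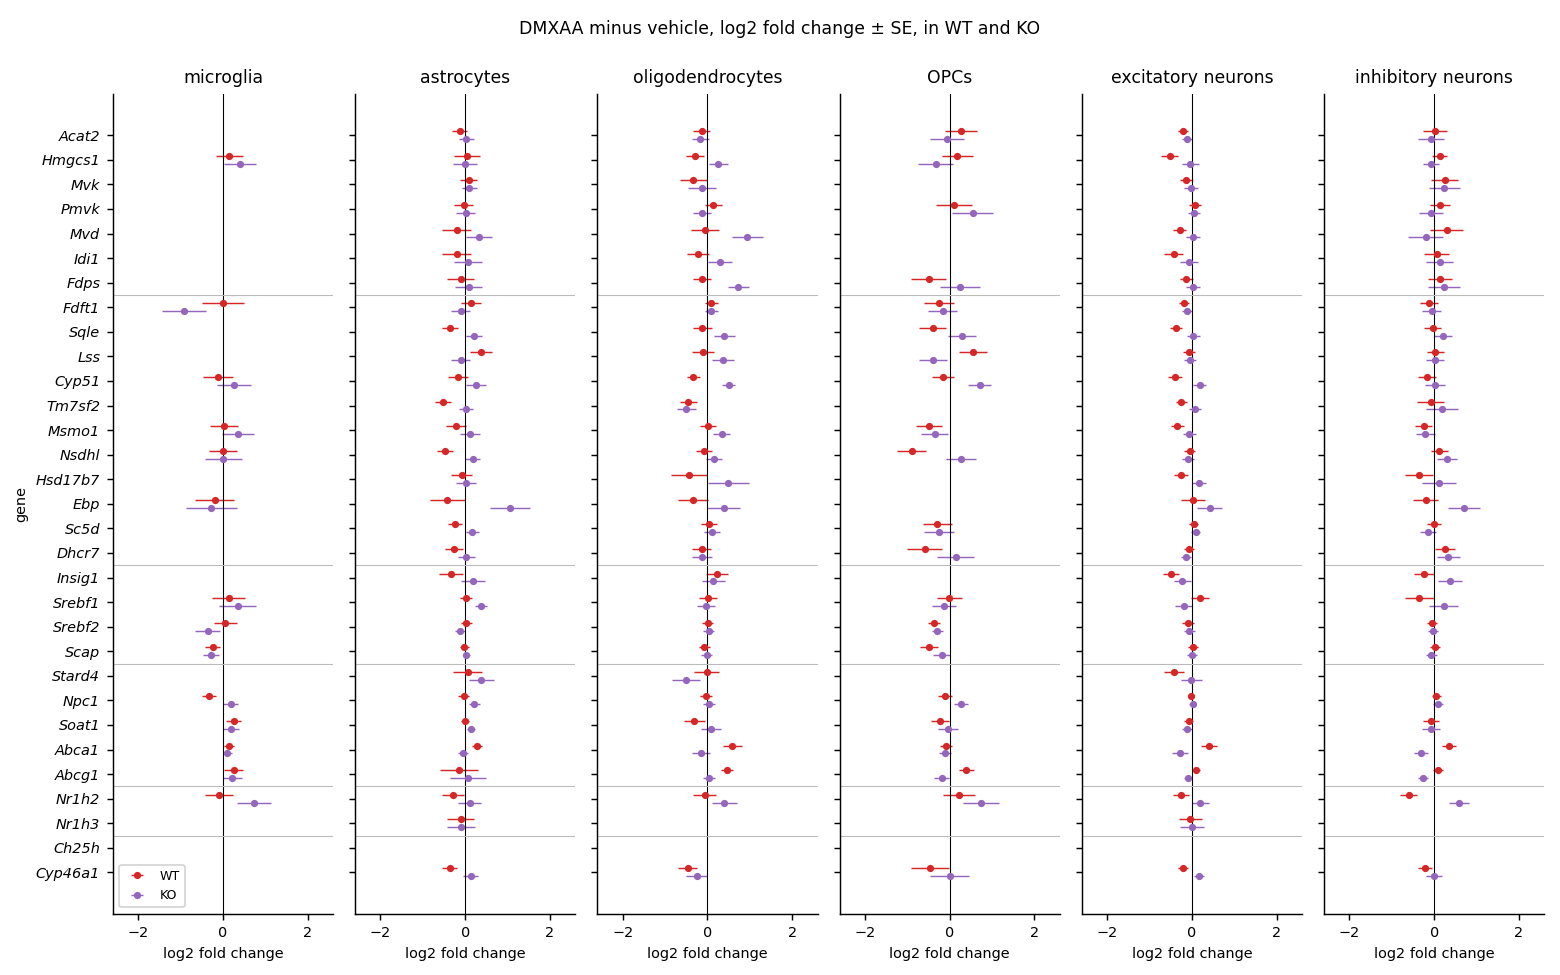
Log2 fold change after DMXAA (x axis, ± SE) of each tested member (y axis, by role) in WT (red) and KO (purple), 1 panel per class. No value passed the test in either genotype. In EN most WT values of synthesis genes lie left of 0, down to −0.53 for *Hmgcs1*.

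Vehicle-treated KO and WT mice differed in several members, on a background in which many genes differed. Of all genes, 13.2% passed in microglia, 29.9% in astrocytes, 29.5% in oligodendrocytes, 24.8% in OPCs, 49.7% in EN and 39.2% in IN. Among members 1 of 14, 6 of 30, 5 of 29, 3 of 21, 11 of 30 and 7 of 28 passed, a smaller share than of all genes in each of the 6 classes. With the gene length offset given below, the share of members in astrocytes was above that of all genes. This contrast followed gene length: in EN the median log2 fold change was −0.75 over the shortest 20% of genes and 0.56 over the longest, and in astrocytes −0.77 and 0.47. The trend was smaller after DMXAA in WT, −0.03 to 0.08 in EN, −0.04 to 0.15 in astrocytes, −0.05 to 0.18 in oligodendrocytes and −0.03 to 0.21 in microglia, and after DMXAA in KO it ran the opposite way, 0.16 to −0.12 in EN and 0.21 to −0.09 in astrocytes. A fit with an offset that removed the median change of 20 length bins was therefore added after seeing the data, and its value is given beside each member. What produced the length trend was not tested.

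*Abca1*, a long gene of 129 kb, rose in 5 of 6 classes: by 0.36 ± 0.11 in microglia (adjusted *P* = 0.0366), 0.59 ± 0.12 in astrocytes (0.00272), 0.66 ± 0.22 in oligodendrocytes (0.0348), 0.74 ± 0.19 in EN (0.00626) and 0.64 ± 0.16 in IN (0.00612). In microglia the KO vehicle values of 498, 539, 497 and 580 normalized CPM lay above all WT vehicle values. Of 14 marker lists in microglia, 4 were higher in KO vehicle without overlap: those of astrocytes spanned 402 to 518 CPM in WT vehicle and 555 to 649 in KO vehicle, differentiating OPCs 837 to 904 and 1082 to 1250, OPCs 56.1 to 79.9 and 114 to 240, and IN 107 to 201 and 256 to 708. Their part in the *Abca1* result was not tested. With the length offset *Abca1* passed in no class, at 0.22 in astrocytes (adjusted *P* = 0.263), 0.26 in oligodendrocytes (0.541), 0.26 in EN (0.237), 0.22 in IN (0.403) and −0.05 in microglia (0.901), where the sign turned. *Abcg1*, 60.3 kb long, rose in oligodendrocytes, OPCs, EN and IN, by 0.56, 0.61, 0.58 and 0.41. In EN it read 33.3, 30.7, 28.4 and 30.9 in WT vehicle and 47.5, 49.1, 46.2 and 40.8 in KO vehicle, and only there did it pass with the offset too, at 0.29 (adjusted *P* = 0.00783). Elsewhere the offset gave 0.34 in oligodendrocytes, 0.49 in OPCs and 0.21 in IN. *Nr1h2*, at 4.34 kb among the shortest, fell in astrocytes by 0.73, in EN by 0.91 and in IN by 1.17. With the offset it passed in none of them, at 0.07, −0.20 and −0.33.

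In astrocytes 3 members rose with and without the offset. *Lss*, lanosterol synthase, was at 0.87 ± 0.24 (adjusted *P* = 0.0157; with the offset 0.91, 0.0246), from 11.1, 11.7, 10.8 and 22.9 normalized CPM in WT vehicle to 21.7, 27.2, 27.0 and 29.5 in KO vehicle. *Fdft1* was at 0.82 ± 0.22 (adjusted *P* = 0.0139; offset 0.78, 0.0324), from 64.2, 73.2, 64.3 and 124 to 148, 135, 141 and 154. *Srebf2* was at 0.55 ± 0.13 (adjusted *P* = 0.00607; offset 0.35, 0.0481), from 136, 131, 145 and 160 to 209, 208, 209 and 211. For *Fdft1* and *Srebf2* the groups did not overlap, and for *Lss* WT vehicle 4 lay inside the KO range. *Ebp* fell by 1.83 ± 0.45 on the log2 scale (adjusted *P* = 0.00793; offset −1.37, 0.0338), from 5.31, 5.84, 7.41 and 8.19 to 1.13, 2.35, 1.38 and 2.76. Library WT DMXAA 3 read 0.851 for *Ebp*, below every KO library, while the other 3 WT DMXAA libraries read 3.49 to 7.97. With the offset *Mvk*, *Acat2* and *Tm7sf2* also passed, at 0.56, 0.55 and 0.74, so 7 of 30 members passed in astrocytes, of which 6 were higher in KO. With the offset 11.2% of all genes passed in astrocytes, 3.14% in microglia, 9.46% in oligodendrocytes, 12.4% in OPCs, 34.2% in EN and 20% in IN, and in the last 5 of these classes 0 of 14, 2 of 29, 0 of 21, 4 of 30 and 2 of 28 members did. Of 14 marker lists in astrocytes, 5 did not overlap between the genotypes: their own markers spanned 15283 to 17243 CPM in WT vehicle and 18597 to 19822 in KO vehicle, those of differentiating OPCs 919 to 978 and 1217 to 1335, IN 214 to 339 and 386 to 646, oligodendrocytes 195 to 253 and 116 to 167, and microglia 85.0 to 126 and 49.3 to 67.7. Their part in these results was not tested.

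In the other classes every synthesis gene that passed without the offset was lower in KO: 3 of 18 in oligodendrocytes, 1 of 12 in OPCs, 5 of 18 in EN and 3 of 18 in IN. Of all genes 16.4, 12.4, 26.1 and 20.2% passed as lower in these classes (16.2% in astrocytes and 6.50% in microglia), so the counts lie near the background and are no result about the list. With the offset 2 of these remained in oligodendrocytes, 1 in EN and 0 in OPCs and IN. *Cyp51* (chr5:4081145-4104746) fell in oligodendrocytes by 0.72 ± 0.15 on the log2 scale (adjusted *P* = 0.00408; offset −0.56, 0.0169), from 54.0, 45.6, 56.6 and 56.0 to 35.5, 31.3, 36.9 and 25.3, and in EN by 0.52 ± 0.16 (adjusted *P* = 0.0137; offset −0.45, 0.0301). In OPCs it fell by 0.74 ± 0.27 (adjusted *P* = 0.0496), a call that was lost with the offset (−0.50, 0.206). The gene overlaps with *Akap9* on the opposite strand. *Fdps* fell in oligodendrocytes by 1.35 ± 0.24 (adjusted *P* = 0.00165; offset −0.78, 0.0181), from 24.0, 21.6, 23.8 and 25.7 to 8.97, 10.7, 8.84 and 8.84. In EN and IN *Fdps* fell by 0.75 and 0.93, which did not pass with the offset (−0.24 and −0.37). In EN *Sqle* fell by 0.48 and *Msmo1* by 0.43, and neither passed with the offset (−0.25 and −0.20). *Pmvk* in IN fell by 0.70, again not with the offset (−0.37). *Ebp* fell by 1.07 in oligodendrocytes, 0.81 in EN and 0.98 in IN, and passed in none of them with the offset (−0.52, −0.31 and −0.43). Whether the interferon core before its start had a part in this was not tested. In oligodendrocytes the endothelial marker sum reached 59.7 CPM in a KO vehicle library against at most 5.99 in WT vehicle, and the microglial sum was 46.5 to 51.1 against 67.2 to 83.0. The oligodendrocytes' own markers were at 12574 to 12814 against 15046 to 16386, those of differentiating OPCs at 1327 to 1429 against 983 to 1128 and those of IN at 2637 to 2810 against 2045 to 2525, so that 5 of 14 lists did not overlap. In EN, IN and OPCs 7, 6 and 3 lists did not overlap, and the mix of EN regions differed by library. Their part in these results was not tested.

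Of the oxysterol enzymes, *Cyp46a1* passed in EN, where it fell by 0.51 ± 0.12 on the log2 scale (adjusted *P* = 0.00318; offset −0.53, 0.00430), from 27.5, 25.6, 33.0 and 27.6 normalized CPM to 21.7, 17.8, 19.5 and 20.8. In IN, where it read 33.7, 32.9, 46.1 and 34.8 against 27.2, 19.4, 28.3 and 33.3, it did not pass. The part of the mix of EN regions in the fall of *Cyp46a1* was not tested. *Srebf1* in EN rose by 0.60 ± 0.21 (adjusted *P* = 0.0247; offset 0.67, 0.0240), from 2.75, 3.11, 2.96 and 2.66 to 4.19, 5.64, 3.65 and 4.04. *Scap* rose in EN and IN by 0.38 and 0.40, and passed in neither with the offset (0.19 and 0.29). In OPCs *Srebf2* rose by 0.42 ± 0.13 (adjusted *P* = 0.0257; offset 0.30, 0.125), from 61.2, 59.8, 54.2 and 54.0 to 75.0, 81.0, 71.8 and 80.8. With the offset *Idi1* and *Hmgcs1* were the 2 members that passed in IN, at 0.92 and 0.52, and neither had passed without it.

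Of the 42 other genes of sterol and lipid handling, those that passed in this contrast were 1 higher and 1 lower of 31 tested in microglia, 10 and 4 of 40 in astrocytes, 4 and 7 of 41 in oligodendrocytes, 4 and 3 of 37 in OPCs, 13 and 5 of 41 in EN and 8 and 5 of 36 in IN. The shares over all genes were 13.2, 29.9, 29.5, 24.8, 49.7 and 39.2% in that order, so these counts lie near or below the background and are no result about the list. *Lpcat3*, a phospholipid acyltransferase and liver X receptor target, rose in all 6 classes, by 0.44 in IN to 0.83 in EN. *Ggps1*, which diverts farnesyl diphosphate to geranylgeranyl diphosphate, fell in all 6, by 0.62 in astrocytes to 1.19 in microglia. Enzymes of fatty acid synthesis and desaturation, known targets of *Srebf1*, went both ways. *Elovl6* rose in 4 classes, *Acaca* in 5, *Acss2* in 3 and *Fads2* in 2. *Fasn* fell in EN by 0.42, and *Scd1*, *Scd2* and *Fads1* fell in oligodendrocytes by 0.86, 0.71 and 0.81. These values carry no length offset.

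**Figure D5:**
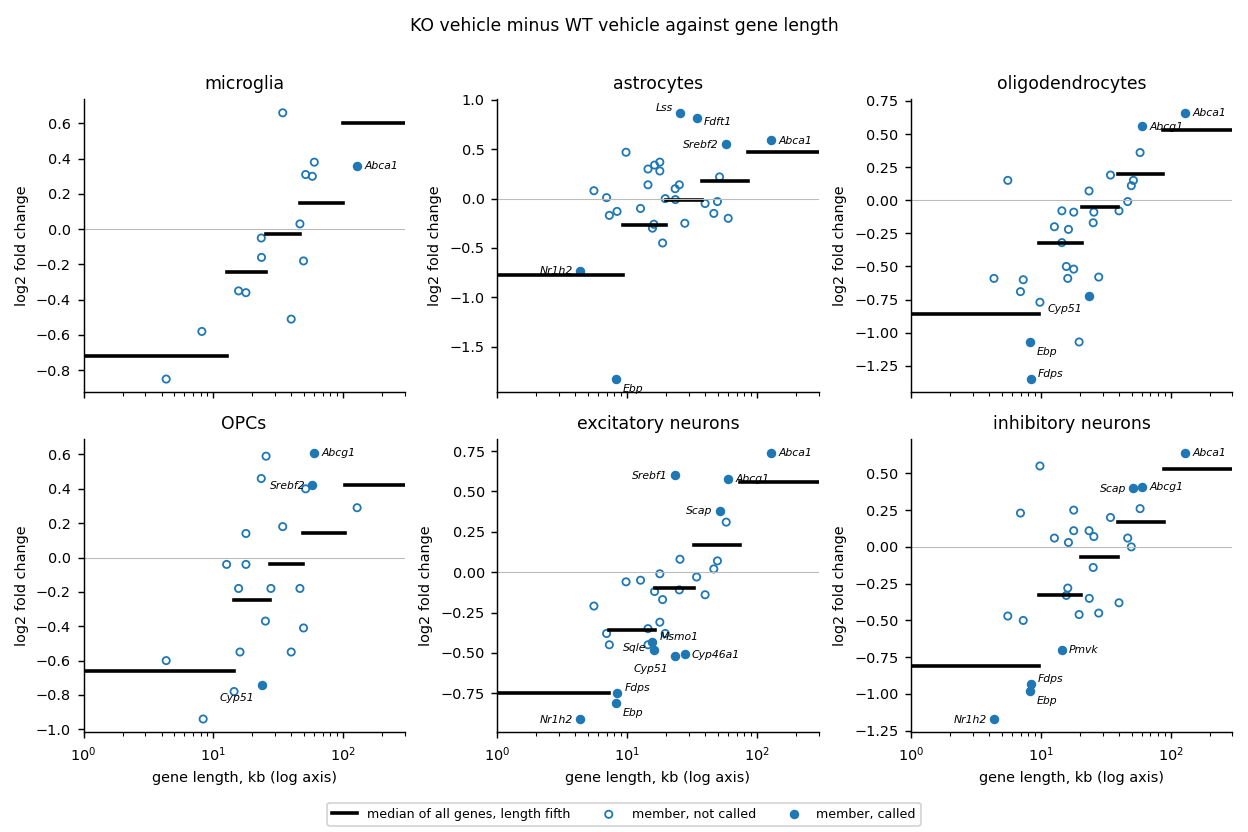
Log2 fold change of KO vehicle against WT vehicle (y axis) for each tested member at its gene length in kb (x axis, log scale), by class, with filled points for members that passed and black bars at the median of all genes in each 20% of genes by length. The bars climb from short to long genes in all 6 classes, *Abca1* lies near the bar of the longest genes, and *Lss*, *Fdft1* and *Ebp* in astrocytes lie away from theirs.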

How the data were processed

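Hippocampal nuclei were sorted by DAPI and sequenced as 10x 3′ libraries, and the authors deposited raw UMI counts per gene and barcode, with intronic reads counted on mm10. The submitters' processing notes name Cell Ranger 3.1.0 and Seurat 3.0, and the deposited file headers Cell Ranger 6.1.2. Nuclear RNA alone was measured. Libraries were grouped by the labels, with replicate numbers in accession order that pair nothing, and 0 value columns were left without a sample. The members and lists were chosen with earlier results of these data known.

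Barcodes with 200 to 4000 genes and at most 5% mitochondrial counts were kept, which removed 27851 barcodes over 4000 genes, and 7137 doublets scored from simulated doublets were removed at 0.8% per 1000 nuclei of a library. Nuclei were clustered on 2000 variable genes (0 of them members) with 30 principal components, 20 neighbours and Leiden resolution 0.5 (Python 3.11.15, leidenalg 0.10.2, scikit-learn 1.9.0). The 29 clusters were named from markers, with thresholds and EN region rules set after the clusters were seen, and 10864 nuclei stayed unnamed. No correction for free RNA was made.

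The counts of all nuclei of a class were added up within each library that held at least 20 of them. All 4 groups were fitted in 1 model per class over all genes past edgeR's filter on low counts (R 4.3.3, edgeR 4.0.16, quasi-likelihood test, TMM scaling, Benjamini-Hochberg adjustment over all genes tested), with thresholds on adjusted P and fold change following the study's methods. The fit was also run on counts simulated for microglia and EN, and the outcome is not given here. Class levels were plain CPM, and values per library CPM scaled by TMM. Depth per class and library ran from 415466 UMIs in microglia to 37757140 in EN, so low members were measured least precisely in microglia. Intervals cover counting error only. Values per library were given, by rule, for Hmgcs1, Sqle, Srebf2, Insig1, Abca1, Abcg1, Ch25h and Cyp46a1, for members passing in any class and contrast, and for the 2 members per class with the lowest P after DMXAA in WT, in the classes where a result turned on them. Alternatives were DESeq2 1.42.0, limma-trend (limma 3.58.1), DESeq2 size factors, no filter on low counts, each genotype fitted alone, doublets kept, no upper gene limit, Leiden resolution 1.0, each library left out in turn and, chosen after seeing the data, an offset per library for 20 bins of gene length. Gene positions came from GENCODE M21 and promoter windows from RefSeq (GRCm38.p6).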

Additional observations from a re-analysis of the deposited data

Results flagged for a closer look

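In each group of 4 libraries, a library was set apart where its gap to the nearest other exceeded Dixon's 95% critical value for 4 values. Of 296 groups 19 met this, where chance gives about 1 in 20. All values are normalized CPM, with the range of the other 3 libraries of the group in parentheses.

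Library WT vehicle 4 stood high in astrocytes, with a mevalonate sum of 280 (138 to 154), a squalene-to-sterol sum of 832 (479 to 526) and *Hmgcs1* at 121 (46.3 to 56.2). Library WT DMXAA 1 stood high in oligodendrocytes, with a control-gene sum of 342 (234 to 238), and in OPCs, with *Abcg1* at 110 (61.6 to 69.7). Without WT vehicle 4 the synthesis median after DMXAA in WT astrocytes was 0.12 in place of −0.19.

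Single values that stood apart in microglia were the transport and efflux sum of WT vehicle 2 at 609 (678 to 685) and of KO vehicle 4 at 854 (776 to 789), the oxysterol enzyme sum of KO vehicle 2 at 13.9 (3.88 to 5.14) and *Srebf2* of WT vehicle 3 at 54.5 (33.5 to 37.0). The oxysterol sum of KO vehicle 2 came from 6 *Cyp46a1* UMIs, against 2 to 3 in the other KO vehicle libraries. In astrocytes *Srebf2* of KO DMXAA 2 was at 212 (184 to 188). *Abcg1* there was at 1.17 in WT vehicle 2 (3.99 to 4.09) and 5.96 in WT DMXAA 3 (1.91 to 2.30). Those 2 values rested on 3 and 14 UMIs, and the other libraries of these groups on 4 to 15. In OPCs *Abca1* of KO vehicle 1 was at 167 (179 to 181). *Abcg1* in OPCs was at 50.6 in WT vehicle 1 (60.6 to 61.8), 74.3 in KO vehicle 2 (93.1 to 96.4) and 59.1 in KO DMXAA 4 (82.9 to 87.2). In IN the transport and efflux sum of WT vehicle 1 was 109 (101 to 102), *Abcg1* of WT vehicle 3 was 25.9 (31.4 to 32.3) and *Cyp46a1* of WT vehicle 3 was 46.1 (32.9 to 34.8).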

How the results depend on the processing

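The absence of members passing after DMXAA held under every alternative with all libraries, in both genotypes and in the interaction. Leaving out libraries gave 0 to 2 members in WT oligodendrocytes, 2 without WT DMXAA 3 (*Abca1* and *Abcg1*). Shares of all genes passing in these alternative fits are not given here, except for the offset in the genotype contrast. The counts in this paragraph therefore describe stability and are no result about the list. The genotype contrast was less stable. In microglia its 1 member became 0 without the filter on low counts, with doublets kept, with no upper gene limit and with the length offset, and 0 to 2 when libraries were left out (2 without WT DMXAA 3, and 0 without any WT vehicle library or KO vehicle 1, 2 or 4). In oligodendrocytes 5 became 8 with doublets kept and 2 with the offset, and 3 to 13 with libraries left out (13 without WT DMXAA 3, 8 without WT DMXAA 1, and 3 without WT vehicle 1 or 4 or KO vehicle 1, 2 or 3). In OPCs 3 became 1 with DESeq2, 1 without the filter and 0 with the offset, and 1 to 3 with libraries left out (1 without WT vehicle 1 or KO vehicle 2). In EN 11 became 4 with the offset, and 9 to 14 with libraries left out. In IN 7 became 4 without the filter and 2 with the offset, and 4 to 9 with libraries left out (4 without WT vehicle 2 or 4 or KO vehicle 2 or 3). In astrocytes leaving out libraries gave 4 to 6. With the offset, *Abca1* in microglia turned to −0.05 (adjusted P = 0.901) and *Nr1h2* in astrocytes to 0.07. The cause was not tested.

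The synthesis median after DMXAA moved to −0.16 in WT IN with no upper gene limit, to −0.23 in KO microglia with doublets kept and to −0.07 in KO EN with the offset. Leaving out libraries moved the WT median between −0.16 and 0.05 in microglia, −0.33 and 0.12 in astrocytes, −0.26 and −0.01 in oligodendrocytes, −0.46 and −0.10 in OPCs, −0.24 and −0.16 in EN and −0.02 and 0.07 in IN. With 4 libraries a group, *Ch25h* and 17 of 31 members in microglia could not be tested at this depth, and fewer nuclei of a state cannot be told apart from less RNA per nucleus.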

Other observations

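Several members had their highest level outside the 6 fitted classes, in classes that were not tested. *Stard4*, a sterol carrier, had a median of 45.0 CPM in endothelial nuclei over 11 libraries (range 0 to 90.8, 46 UMIs in all), against 8.74 in astrocytes. *Srebf1* had a median of 64.5 CPM in ependymal nuclei (25.6 to 80.0, 8 libraries) and 48.0 in astrocytes, with overlapping ranges. *Nr1h3* had 52.1 CPM in pericytes (13.4 to 219, 13 libraries, 54 UMIs), with the uncertainty of its overlapping gene. *Abca1* was the next highest after microglia in fibroblasts, with a median of 264 CPM (169 to 345). *Hmgcs1* had a median of 50.4 CPM in choroid plexus (35.2 to 86.2), within the range of astrocytes. *Ch25h* had a UMI in 4 of 361 endothelial nuclei, 1.11% (exact 95% binomial interval 0.303 to 2.81%, median depth 2270 UMIs), an interval that overlaps with that of IN.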
